A study of Mus musculus with 12 samples.

Results

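The response of mouse CD8+ T cells to trans-vaccenic acid (TVA) was measured in cells that had received an siRNA directed against Creb1 (siCreb1), as the difference between 3 libraries of siCreb1 plus TVA and 3 libraries of siCreb1. Members were the 11648 of the 54532 listed genes with a mean of at least 1 FPKM (fragments per kilobase of gene, scaled to the size of the library) over these 6 libraries. They comprised 9654 protein-coding genes and 1994 genes of other types. The last gene inside this limit was Gm14302 at 1.00001 FPKM and the first outside was Caskin2 at 0.998687 FPKM.

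The cells were primary CD8+ T cells of the mouse that were activated in culture before the siRNA was added. They received either siCreb1 (genotype Creb1 KD in the labels) or a non-targeting siRNA (siNTC, genotype WT), and then 20 µM TVA or DMSO for 24 h, which gave 4 groups of 3 libraries. Both siRNA groups thus held cells treated with an siRNA, which lowers a transcript for a limited time and need not do so in every cell. Neither the labels nor the methods say whether the 3 libraries of a group came from separate mice or cultures, so the p-values measure the spread between these libraries, which may be technical.

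TVA is a long-chain trans fatty acid found in the meat and milk of ruminants. Cells sense fatty acids and sterols through several transcription factors. PPAR receptors bind fatty acids and raise genes of fat burning, such as Cpt1a, whose product carries long-chain fatty acids into mitochondria. SREBP proteins are released from the endoplasmic reticulum when membranes run low in sterol and raise the genes of cholesterol and fatty acid synthesis, and LXR receptors bind oxidised sterols and raise the genes of cholesterol export. CREB, the product of Creb1, is phosphorylated when cyclic AMP rises, and T cells engage it on activation. The comparison asked which part of the TVA response was measured in cells given siCreb1.

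Creb1 itself (ENSMUSG00000025958, GRCm38 chromosome 1 from 64532645 to 64604548) was the gene that the siRNA targets. Its deposited values were 1.19, 1.29 and 1.77 FPKM in siCreb1 and 1.81, 1.67 and 1.17 FPKM in siCreb1 plus TVA libraries, against 10.3 to 12.4 FPKM in the 6 siNTC libraries. The log2 fold change of Creb1 was −2.27 (SE 0.11) for siCreb1 against siNTC (adjusted p = 2.23e-06, limma), and TVA moved it by 0.08 (SE 0.11) in siCreb1 cells (adjusted p = 0.896, limma). These Creb1 values differed in kind from all others in the files. Multiplied by the gene length, the FPKM of every other gene in every library was a whole number of reads to within 0.00117 reads, whereas Creb1 came to 340.92, 395.97 and 538.95 reads in siCreb1 and to 595.71, 575.29 and 354.09 reads in siCreb1 plus TVA libraries. In the 6 siNTC libraries Creb1 was a whole number too, from 2457 to 3471 reads. The rows of all 12 files followed the falling mean FPKM over the 12 libraries, and of 54531 neighbouring pairs 1 broke that order, which was the pair of Creb1. Its row stood between Dpp9, with a mean of 11.3432 FPKM, and E4f1, with a mean of 11.324 FPKM, while its own mean over the 12 deposited values was 6.34 FPKM. A mean over the 6 siCreb1 libraries of between 11.45 and 11.49 FPKM would place it there, and the deposited mean over these libraries was 1.48 FPKM. The cause was not tested. The deposited Creb1 values are therefore not used here as a check of the labels, the groups are called by their labels, and how far Creb1 was lowered in these cells is not stated.

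The 6 libraries with siCreb1 held between 20760297 and 24602484 recovered reads. Between replicates of a group, the variance was 3.54 to 4.29 times that of read counting. All 10 markers of CD8 T cells were above 1 FPKM, and their summed level was 2697 to 2707 FPKM without and 2683 to 2708 FPKM with TVA.

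With TVA, 62 of the 11648 genes (0.532%) changed in siCreb1 cells at an adjusted p under 0.05 (limma on log2(FPKM + 1), Benjamini-Hochberg over all genes tested). Among them 14 rose (0.12% of all genes) and 48 fell (0.412%). At an unadjusted p under 0.05 there were 1112 genes (9.55%). The rises were led by Cpt1a and the falls by the desaturases Scd1 and Scd2 and by genes of cholesterol synthesis. The changes were small for most genes, with rises of 0.17 to 1.38 and falls between −0.97 and −0.15 on the log2 scale, and 3 genes rose and 2 fell by at least 2-fold in mean FPKM. In all 62 genes the 3 libraries with TVA lay outside the range of the 3 without, which was so for 17% of all genes tested. The 62 were called on these same libraries, so this adds no support to the calls. The split into higher and lower depended on the model, since limma-voom on the recovered reads called 155 genes, of which 64 (41.3%) were higher and 91 lower, against 22.6% higher among the 62. The count of 62 fell to 33, 30 and 44 without siCreb1 replicates 1, 2 and 3 and to 35, 36 and 31 without siCreb1 plus TVA replicates 1, 2 and 3. In all, 26 of the 62 genes kept an adjusted p under 0.05 in each of the 16 or 17 alternatives that tested them. The 5 risen genes among these 26 were Cpt1a, Rhob, Klf11, Acadvl and Hilpda, and the 21 fallen genes included Scd1, Scd2, Lif, Abcg1, Lss, Hmgcs1, Msmo1, Aacs, Fdft1, Mvd, Cyp51, Sqle, Insig1, Gbp2, Pcyt2, Wars, Il2ra and Fasn.

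**Figure D1:**
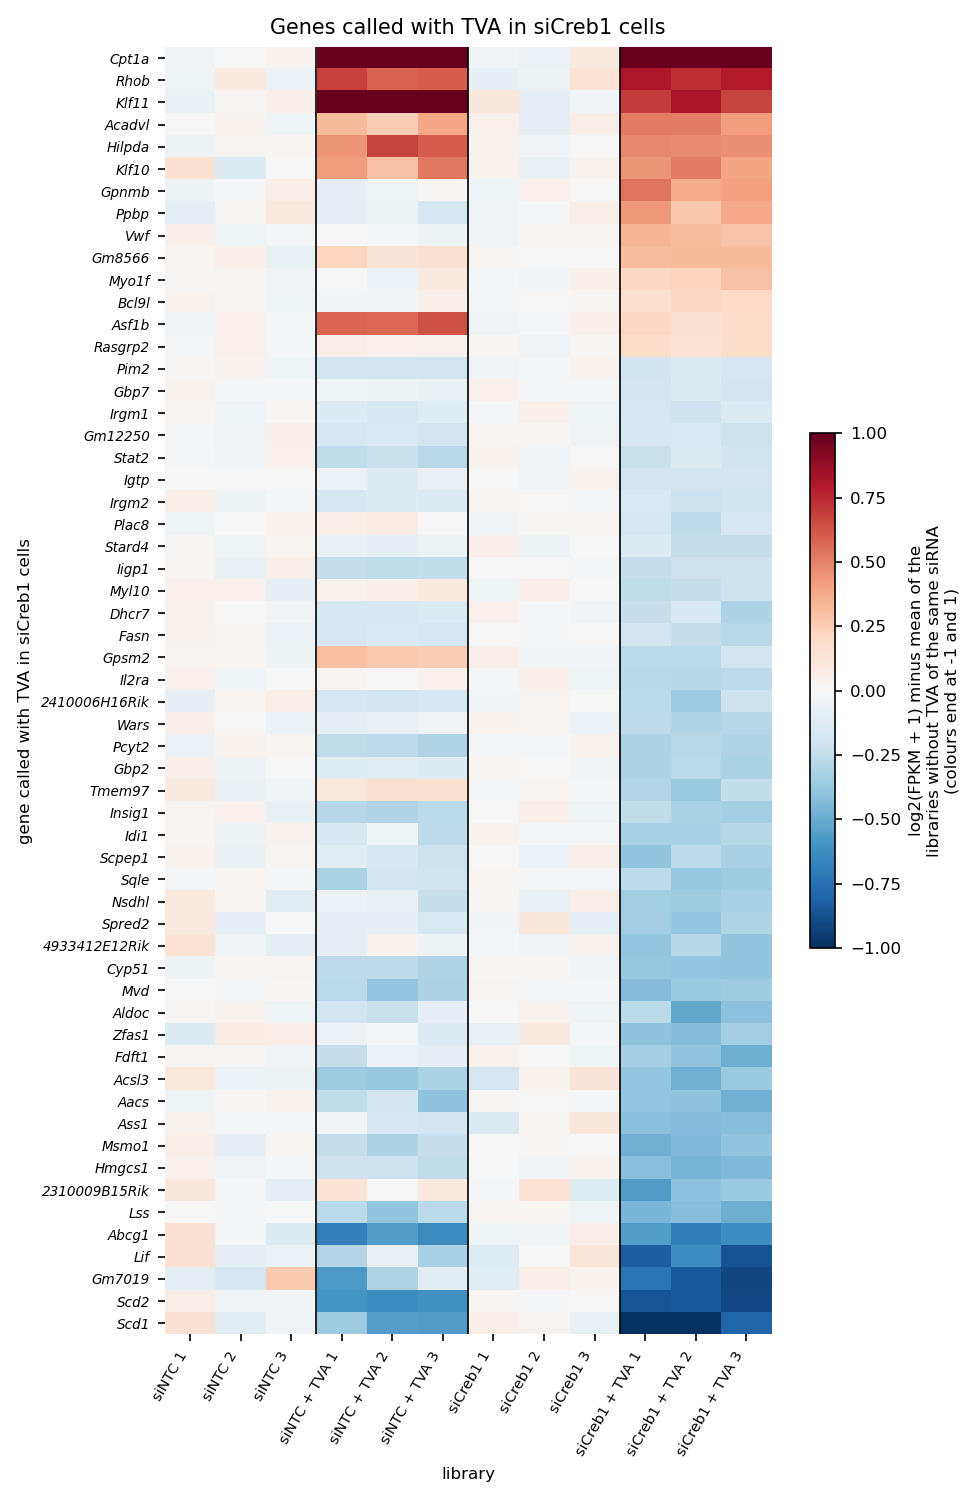
Each row is 1 of 58 of the genes called with TVA in siCreb1 cells and each column 1 of the 12 libraries, and the colour is log2(FPKM + 1) minus the mean of the 3 libraries without TVA of the same siRNA, with colours ending at −1 and 1. The 3 siCreb1 plus TVA columns are of 1 sign in every row, while in the siNTC plus TVA columns 38 of the 44 lower and 11 of the 14 higher genes drawn have the same sign of their mean.

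Cpt1a, Acadvl and Hilpda, genes of fatty acid handling, and the transcription factor Klf11 rose. Cpt1a (ENSMUSG00000024900, chromosome 19 from 3323301 to 3385732), which encodes the gatekeeper of mitochondrial fatty acid oxidation, was at 11.8, 11.6 and 13.0 FPKM in siCreb1 and at 33.7, 32.3 and 33.8 FPKM in siCreb1 plus TVA libraries. The groups were far apart, with a ratio of the means of 2.73 and a log2 fold change of 1.38 (SE 0.04, adjusted p = 7.04e-08, limma). Acadvl, which encodes the acyl-CoA dehydrogenase for very long chains, went from 13.2, 11.9 and 13.4 to 18.8, 18.7 and 17.5 FPKM. Its log2 fold change was 0.48 (SE 0.05, adjusted p = 0.00149, limma), and Dvl2 lies over it on the opposite strand, so reads of the pair could be shared if strand was not counted. Hilpda, whose product coats lipid droplets and restrains their breakdown, rose from 7.76, 7.38 and 7.51 to 10.9, 10.8 and 10.8 FPKM (log2 fold change 0.47, SE 0.05, adjusted p = 0.0023, limma). Klf11, a Krüppel-like transcription factor, was at 1.75, 1.39 and 1.501 FPKM without and at 3.12, 3.49 and 3.06 FPKM with TVA. Its mean FPKM rose 2.08-fold (log2 fold change 0.73, SE 0.07, adjusted p = 0.00111, limma).

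These 4 genes were the called members of the PPAR target list, of which 19 were tested, against 0.12% of all genes called higher. Its median log2 fold change was 0.05, against −0.0011 over all genes tested, and 8 of the 19 had libraries apart and higher (8.04% of all genes did). Of its other members, Slc25a20, the carnitine carrier of the inner mitochondrial membrane, went from 6.35–7.29 to 8.31–9.09 FPKM (log2 fold change 0.32, adjusted p = 0.0942, limma) and Plin2, a lipid droplet coat, from 0.979–1.45 to 1.88–2.17 FPKM (0.42, adjusted p = 0.0936, limma). Neither passed the threshold, though their libraries did not overlap. In the list 12 members had a positive log2 fold change (49.3% of all genes did) and 7 a negative one. Libraries lay apart and lower in 2 (8.99% of all genes), Txnip and Angptl4. Txnip went from a mean of 123.5 to 114.1 FPKM (−0.11, adjusted p = 0.0696, limma). Angptl4 went from 2.56 to 2.25 FPKM (−0.13, adjusted p = 0.651, limma). Pdk4, Acot1, Ucp3, Fabp4, Cd36 and Vldlr of this list were under 1 FPKM and were not tested. In the list of mitochondrial fatty acid oxidation 2 of 22 members were called higher, Cpt1a and Acadvl (0.12% of all genes were), 17 of the 22 had a positive log2 fold change (49.3% of all genes did), and 7 had libraries that lay apart and higher.

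**Figure D2:**
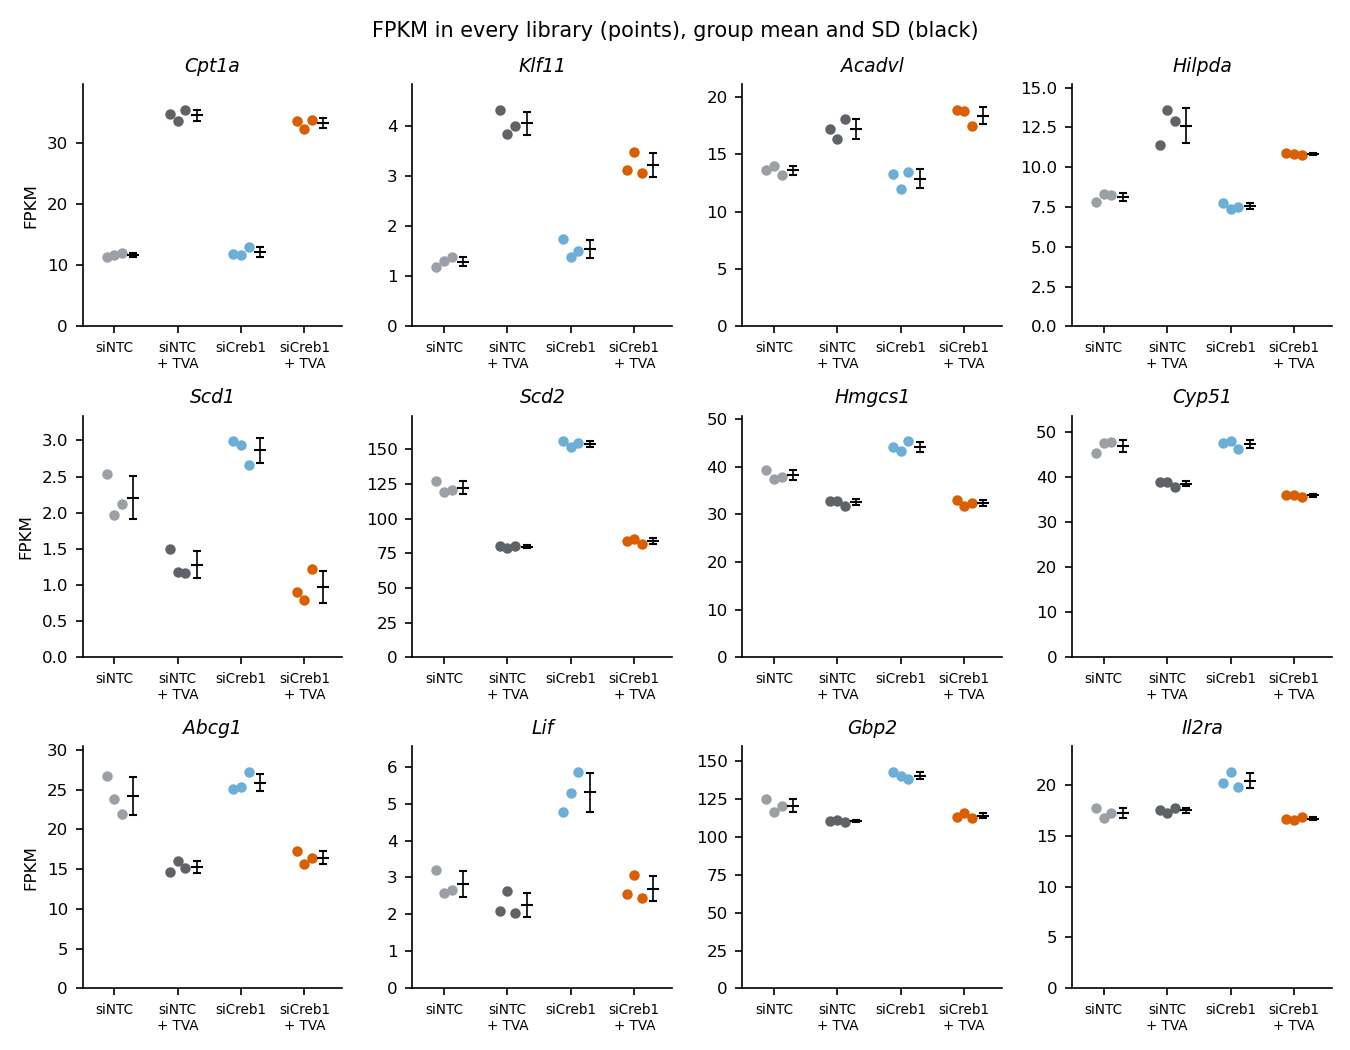
FPKM (vertical axis, starting at 0) of 12 genes called with TVA in siCreb1 cells, with 1 point per library in each of the 4 groups and the group mean and SD (n = 3) in black. In the first row Cpt1a, Klf11, Acadvl and Hilpda stand higher in both TVA groups, and in Il2ra the siCreb1 libraries at 19.8 to 21.2 FPKM stand above the other 3 groups at 16.6 to 17.7 FPKM.

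Other risen genes had no shared list. Rhob, a small GTPase of the actin cytoskeleton and of endosomes, was at 1.57, 1.62 and 1.98 FPKM without and at 3.76, 3.54 and 3.72 FPKM with TVA, a log2 fold change of 0.78 (SE 0.07, adjusted p = 6e-04, limma). Klf10, a relative of Klf11, went from 2.76, 2.48 and 2.76 to 3.98, 4.22 and 3.82 FPKM (0.45, SE 0.08, adjusted p = 0.0457, limma), and its call was lost in 13 of 16 alternatives. Asf1b, a histone chaperone of dividing cells, rose by 0.18 (adjusted p = 0.0431, limma) and lost its call in 10 of 17 alternatives. Myo1f, a myosin of immune cells, rose by 0.24, Bcl9l, a Wnt coactivator, by 0.19, and Rasgrp2, an activator of the integrin switch Rap1, by 0.17 on the log2 scale, each with its call lost in 10 or 11 of 17 alternatives. Cxcr5 lies over Bcl9l on the opposite strand. Gm8566 is a processed pseudogene and shares sequence with its parent gene, so its rise of 0.31 is uncertain, and limma-voom gave it an adjusted p of 0.433.

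A further group of risen genes is better known from platelets, endothelium and myeloid cells than from T cells. Ppbp, a platelet chemokine, was at 46.4, 46.9 and 49.6 FPKM in siCreb1 and at 64.8, 57.6 and 62.2 FPKM in siCreb1 plus TVA libraries. It rose by 0.36 (SE 0.06, adjusted p = 0.0198, limma), and in siNTC cells it was at 73.5 to 88.6 FPKM over the 6 libraries, above all 6 siCreb1 libraries. Vwf, the von Willebrand factor of platelets and endothelium, went from 1.85–1.96 to 2.56–2.70 FPKM (0.31, SE 0.05, adjusted p = 0.0247, limma). Gpnmb, a glycoprotein of macrophages, went from 1.18–1.31 to 1.91–2.25 FPKM (0.44, SE 0.08, adjusted p = 0.0363, limma). Calls were lost in 7 of 17 alternatives for Ppbp, in 9 of 16 for Vwf and in 11 of 16 for Gpnmb. The summed level of the 8 erythroid and platelet markers, of which Ppbp itself is the largest, went from 99.6–105.3 FPKM without to 121–127 FPKM with TVA. Of the 8, 3 were above 1 FPKM (Pf4, Ppbp and Itga2b), while the haemoglobin genes Hbb-bs and Hba-a2 were at 0 in all 6 libraries. Pf4 went from 44.0–50.1 to 51.4–53.7 FPKM and Itga2b from 7.68–8.14 to 8.61–9.66 FPKM, and neither was called. The 10 macrophage and monocyte markers, 3 of them above 1 FPKM, summed to 11.8–13.9 FPKM without and 14.9–16.8 FPKM with TVA, led by Lyz2, with Csf1r and Adgre1 near 0. The part of such cells in these results was not tested, and in bulk RNA fewer cells of a type and less RNA per cell cannot be told apart. The 8 B cell markers summed to 10.3–11.6 and 12.04–13.01 FPKM, the 6 NK cell markers to 37.3–38.9 and 39.7–41.1 FPKM, and no neutrophil marker had a mean of 1 FPKM over the 6 libraries. The part of these cells was not tested either.

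On the log2(FPKM + 1) scale the largest falls were in the stearoyl-CoA desaturases, which place the first double bond in saturated fatty acids. The genes Scd2 and Scd1 lie beside each other on chromosome 19, from 44293676 to 44306864 and from 44394451 to 44407709. Scd2 was at 156, 151 and 155 FPKM in siCreb1 and at 84.1, 85.6 and 81.7 FPKM in siCreb1 plus TVA libraries, a ratio of the means of 0.545 (log2 fold change −0.87, SE 0.03, adjusted p = 7.04e-08, limma). Scd1 was a far lower transcript, at 2.99, 2.93 and 2.67 FPKM without and at 0.905, 0.793 and 1.22 FPKM with TVA. It kept 0.340 times its mean level (log2 fold change −0.97, SE 0.10, adjusted p = 0.00141, limma). Both desaturases were the called members among the 13 tested genes of desaturation and elongation (0.412% of all genes were called lower). Fads2, the desaturase of polyunsaturated fatty acids, went from 21.4–21.8 to 14.7–18.2 FPKM, did not overlap either, and did not pass the threshold (−0.41, adjusted p = 0.113, limma).

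Genes of cholesterol synthesis made up the largest called group. Of the 25 tested genes of the list of cholesterol synthesis and SREBP2 targets, 15 were called lower (0.412% of all genes were) and none higher, 24 had a negative log2 fold change (50.7% of all genes did), and 22 had all 3 TVA libraries below the 3 without (8.99% of all genes did). The median of the list was −0.30. The promoters of 4 of the called genes are shown because the results turn on this group, as the 250 bases before the RefSeq start (GRCm38.p6), in lower case. In Hmgcs1 (chr13:119690101-119690350, plus strand) capitals mark a match to the sterol regulatory element TCACNCCAC, whose first base is 137 bases before the start.

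Hmgcs1: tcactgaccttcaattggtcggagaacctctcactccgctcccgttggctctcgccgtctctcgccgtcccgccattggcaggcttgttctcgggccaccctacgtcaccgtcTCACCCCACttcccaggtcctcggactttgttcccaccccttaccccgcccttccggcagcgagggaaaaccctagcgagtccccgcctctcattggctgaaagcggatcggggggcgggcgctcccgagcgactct

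In the other 3, Mvd (chr8:122443423-122443672, minus strand), Cyp51 (chr5:4104698-4104947, minus strand) and Insig1 (chr5:28071162-28071411, plus strand), capitals mark the CCAAT box on either strand, the site of the factor NF-Y.

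Mvd: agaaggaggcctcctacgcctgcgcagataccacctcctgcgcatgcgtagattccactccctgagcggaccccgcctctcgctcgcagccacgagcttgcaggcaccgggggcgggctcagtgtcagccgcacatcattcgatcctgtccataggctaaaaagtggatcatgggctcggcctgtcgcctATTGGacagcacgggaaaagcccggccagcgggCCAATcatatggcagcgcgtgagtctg
Cyp51: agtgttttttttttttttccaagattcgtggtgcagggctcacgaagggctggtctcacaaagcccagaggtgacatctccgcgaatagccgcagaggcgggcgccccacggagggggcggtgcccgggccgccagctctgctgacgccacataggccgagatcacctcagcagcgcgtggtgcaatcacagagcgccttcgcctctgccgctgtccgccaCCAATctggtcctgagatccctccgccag
Insig1: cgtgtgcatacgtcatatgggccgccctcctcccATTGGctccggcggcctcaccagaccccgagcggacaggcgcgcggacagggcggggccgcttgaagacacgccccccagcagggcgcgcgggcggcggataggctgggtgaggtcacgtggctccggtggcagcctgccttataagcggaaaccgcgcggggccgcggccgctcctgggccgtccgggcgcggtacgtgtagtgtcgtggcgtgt

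A promoter entry was found for 44 of the 62 called genes and for 8015 of all genes tested, and motifs were searched on both strands of the 250 bases before the start, which is a description of letters and not of binding. CCAAT was present in 16 of the 18 promoters found for the cholesterol list (88.9%) and in 40.8% of all promoters. TCACNCCAC was present in 1 of these 18 and in 1.2% of all promoters. Of the called genes outside the list, Aldoc held that element.

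The called members spanned the pathway from its first committed steps to its end. Hmgcs1, which makes HMG-CoA, was at 44.1, 43.2 and 45.3 FPKM without and at 32.9, 31.7 and 32.3 FPKM with TVA (log2 fold change −0.44, SE 0.03, adjusted p = 5.54e-05, limma). Of the mevalonate and isoprenoid steps, Mvd fell by 0.39 and Idi1 by 0.31, while Mvk, at 7.07–8.06 without and 5.42–6.08 FPKM with TVA, missed the threshold (adjusted p = 0.0841, limma), as did Fdps, at 2.23–2.30 and 1.30–1.83 FPKM (adjusted p = 0.288, limma). Fdft1 and Sqle, which lead into sterols, fell by 0.41 and 0.33, and Lss, which closes the sterol rings, fell from 6.72, 6.65 and 6.33 to 4.52, 4.64 and 4.41 FPKM. That was the largest fall of the list (log2 fold change −0.45, SE 0.04, adjusted p = 0.00102, limma). Among the later sterol steps Cyp51 fell by 0.39, Msmo1 by 0.44, Nsdhl by 0.34 and Dhcr7 by 0.23. Insig1, which holds SREBP in the endoplasmic reticulum, fell by 0.30, and Stard4, a sterol carrier, by 0.20. Calls of Nsdhl, Idi1, Dhcr7 and Stard4 were lost in 8 to 10 of 17 alternatives, and those of Hmgcs1, Mvd, Fdft1, Sqle, Lss, Cyp51, Msmo1 and Insig1 in none. Akap9 lies over Cyp51 and Ctsb over Fdft1 on the opposite strand.

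**Figure D3:**
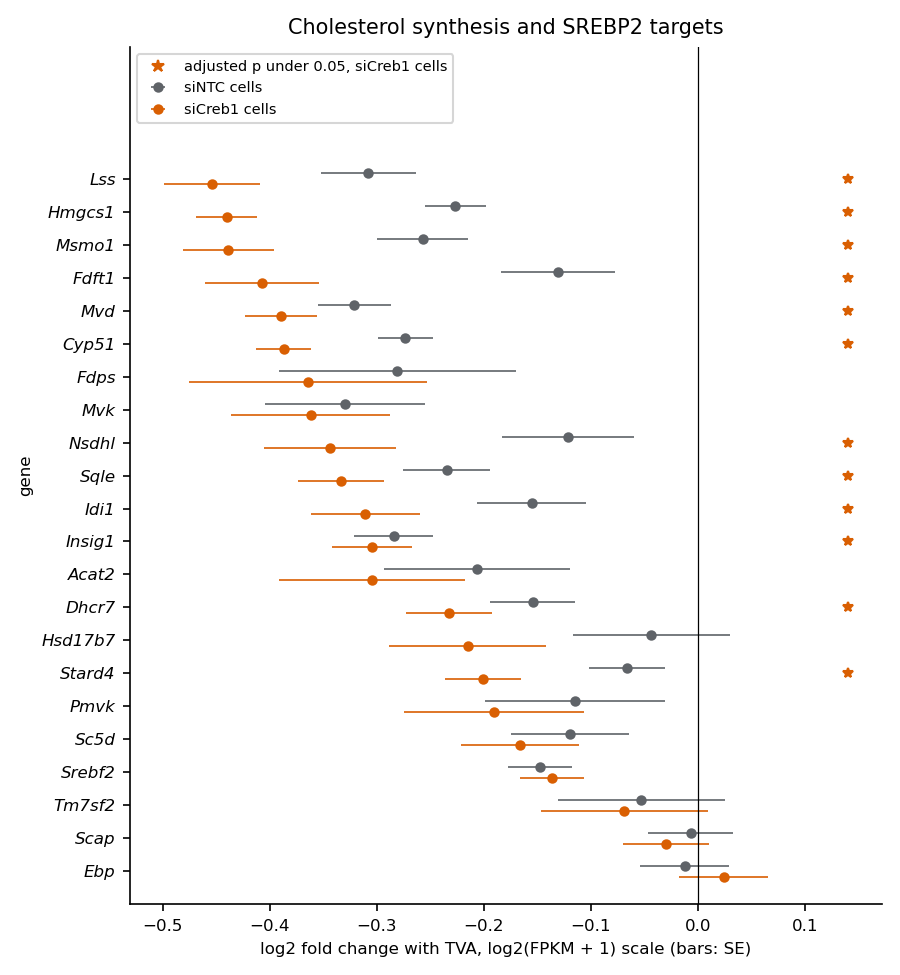
Log2 fold change with TVA (horizontal axis, log2(FPKM + 1) scale, bars are the SE of the fit) of 22 tested genes of cholesterol synthesis and SREBP2 targets in siCreb1 and siNTC cells, with stars for the 12 called in siCreb1 cells. In 20 of the 22 genes the siCreb1 value lies further to the negative side than the siNTC value.

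Some other genes of lipid synthesis and export fell as well. Fasn, the fatty acid synthase, fell from 39.5, 38.9 and 39.5 to 34.2, 33.4 and 32.2 FPKM (−0.23, SE 0.03, adjusted p = 0.00561, limma). It was the 1 called member of the 12 tested genes of fatty acid synthesis and SREBP1 targets, whose median was −0.15 (0.412% of all genes were called lower). Acaca, which makes malonyl-CoA, was at 5.15–5.54 and 4.26–4.47 FPKM (adjusted p = 0.0836, limma), Srebf1, which encodes SREBP1, at 36.7–38.3 and 31.8–32.6 FPKM (adjusted p = 0.0696, limma) and Srebf2, which encodes SREBP2, at 65.1–68.7 and 59.9–62.0 FPKM (adjusted p = 0.104, limma). None of these 3 passed the threshold, and in none did the libraries overlap. Among genes that use or activate lipid precursors, Aacs, the acetoacetyl-CoA synthetase, fell by 0.42, Acsl3, an acyl-CoA synthetase, by 0.41 and Pcyt2, an enzyme of phosphatidylethanolamine synthesis, by 0.30. Tmem97, a regulator of the cholesterol carrier NPC1, fell by 0.30. The call of Acsl3 was lost in 10 and that of Tmem97 in 6 of 17 alternatives. Abcg1, the LXR target that exports cholesterol, was at 25.2, 25.4 and 27.2 FPKM without and at 17.3, 15.6 and 16.4 FPKM with TVA (−0.62, SE 0.07, adjusted p = 0.00141, limma). It was the 1 called gene of 13 in the LXR list (0.412% of all genes were called lower). Of the same list, Abca1 went from 1.53–1.57 to 0.848–0.965 FPKM (adjusted p = 0.0826, limma) and Mylip from 12.2–15.1 to 10.7–11.1 FPKM (adjusted p = 0.166, limma). In that list 9 members had a negative and 4 a positive log2 fold change, with a median of −0.06.

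Several interferon-stimulated genes fell by small amounts. Of 26 tested, 6 were called lower (0.412% of all genes were) and none higher, 22 had a negative log2 fold change (50.7% of all genes did), and the median was −0.11. The promoters of 3 of them are shown because they hold the motif most frequent in this group among those searched, with capitals for GAAA, any 2 bases and GAAA (or its complement), the core of the interferon-stimulated response element, which occurs in Irgm1 as a pair of overlapping matches. They are those of Gbp2 (chr3:142620413-142620662, plus strand), Igtp (chr11:58199306-58199555, plus strand) and Irgm1 (chr11:48871421-48871670, minus strand).

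Gbp2: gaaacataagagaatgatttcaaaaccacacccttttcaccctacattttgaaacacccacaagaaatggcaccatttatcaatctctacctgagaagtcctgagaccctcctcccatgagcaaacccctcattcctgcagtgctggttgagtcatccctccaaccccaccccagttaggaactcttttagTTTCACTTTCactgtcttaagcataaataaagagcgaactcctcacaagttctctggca
Igtp: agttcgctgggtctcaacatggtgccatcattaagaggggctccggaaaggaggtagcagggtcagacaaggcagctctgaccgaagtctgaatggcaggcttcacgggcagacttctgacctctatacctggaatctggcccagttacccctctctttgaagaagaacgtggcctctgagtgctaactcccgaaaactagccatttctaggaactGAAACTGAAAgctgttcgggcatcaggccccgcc
Irgm1: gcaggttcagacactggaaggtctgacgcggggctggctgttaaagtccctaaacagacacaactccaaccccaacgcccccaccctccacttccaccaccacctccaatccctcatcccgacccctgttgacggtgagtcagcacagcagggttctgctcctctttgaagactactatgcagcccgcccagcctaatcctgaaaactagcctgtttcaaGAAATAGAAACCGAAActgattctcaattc

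That motif was in 13 of 21 promoters of the list (61.9%) and in 3.46% of all promoters. It was also in 8 of the 34 promoters found for the called lower genes, which were those of Gbp2, Gbp7, Gm12250, Igtp, Irgm1, Irgm2, Myl10 and Stat2.

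Gbp2, a guanylate-binding protein that attacks the vacuoles of intracellular microbes, was at 143, 141 and 138 FPKM in siCreb1 and at 114, 116 and 113 FPKM in siCreb1 plus TVA libraries (log2 fold change −0.30, SE 0.03, adjusted p = 6e-04, limma). The groups were apart by more than the range of either. Igtp, a GTPase of the same defence, went from 343, 335 and 351 to 300.2, 302 and 301 FPKM (−0.19, SE 0.02, adjusted p = 0.00376, limma). Stat2, a factor that carries the interferon signal, fell by 0.18, Gbp7 by 0.17 and Irgm1 by 0.17. Outside the list, 3 more genes of this kind were among the called, chosen after their values were seen, namely Iigp1 (−0.22), Irgm2 (−0.19) and Gm12250 (−0.17, listed as a processed pseudogene), with calls lost in 5, 12 and 10 of 17 alternatives. The spans of Igtp and Irgm2 overlap on 1 strand, so their reads may be shared. Usp18, at 6.32–6.91 and 5.08–5.86 FPKM, did not pass (adjusted p = 0.162, limma). Of the 6 calls in the list, Gbp2 kept its own in all 17 alternatives, Igtp lost it in 1 and Gbp7, Irgm1 and Stat2 in 9 to 12, and after rescaling to TPM 1 member of the list was called.

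The remaining falls included a cytokine, a cytokine receptor chain and enzymes of amino acid use. Lif, a cytokine of the interleukin-6 family, was at 4.78, 5.29 and 5.84 FPKM without and at 2.55, 3.08 and 2.45 FPKM with TVA. Its mean fell by 49.3% (log2 fold change −0.77, SE 0.10, adjusted p = 0.00561, limma). The fall started from a higher level than in siNTC cells, where Lif was at 2.58–3.21 FPKM without and 2.03–2.63 FPKM with TVA. Without TVA, the log2 fold change of siCreb1 against siNTC was 0.72 (adjusted p = 0.00147, limma). Whether this starting level bears on the fall was not tested. Lif was the 1 called of 11 tested cytokines and chemokines (0.412% of all genes were called lower). Il2ra, the high-affinity chain of the interleukin-2 receptor, went from 20.2, 21.2 and 19.8 to 16.6, 16.6 and 16.9 FPKM (−0.28, SE 0.03, adjusted p = 0.00235, limma). No other of the 19 tested genes of the interleukin-2 receptor family and its SOCS inhibitors was called (0.532% of all genes were). Wars, the tryptophanyl-tRNA synthetase, fell by 0.28 (adjusted p = 0.0031, limma) and Ass1, an enzyme of arginine synthesis, by 0.43 (adjusted p = 0.01, limma). Aldoc, a glycolytic aldolase, fell by 0.40, Pim2, a survival kinase, by 0.16, Spred2, a brake on the Ras pathway, by 0.34, Plac8 by 0.20, Myl10, a myosin light chain, by 0.23, Scpep1, a serine carboxypeptidase, by 0.33 and Gpsm2, which orients the mitotic spindle, by 0.24. The non-coding transcripts Zfas1, 2410006H16Rik and 4933412E12Rik fell by 0.40, 0.28 and 0.36, the gene 2310009B15Rik by 0.45, and the pseudogene Gm7019 by 0.83 at 8 or more reads in a library. On the opposite strand, Wdr25 lies over Wars, Clcc1 over Gpsm2, Znfx1 over Zfas1, and Rab3ip and Gm10271 over 4933412E12Rik. Apart from Lif, Il2ra and Wars, each gene of this paragraph lost its call in 4 or more alternatives.

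The same contrast in siNTC cells shares no library with that in siCreb1 cells. Both came from the single fit of the 12 libraries, with the same SE for a gene in both, so their calls are not independent. In siNTC cells, 845 of the same 11648 genes (7.25%) were called, 517 higher (4.44%) and 328 lower (2.82%). Of the 14 genes called higher in siCreb1 cells, 11 were higher in siNTC cells too and 8 were called, and of the 48 called lower 42 were lower and 27 were called. These 35 genes were 56.5% of the genes called in siCreb1 cells and 4.14% of those called in siNTC cells. For Cpt1a the log2 fold change was 1.48 in siNTC and 1.38 in siCreb1 cells, for Abcg1 −0.62 in both, and for Scd2 −0.61 and −0.87. Across all 11648 genes the 2 sets of log2 fold changes had a Pearson r of 0.0431 and a Spearman rho of 0.092, as a description over genes, which are not independent. Of the 517 genes called higher in siNTC cells, 70.0% were higher in siCreb1 cells, with a median of 0.32 in siNTC and 0.04 in siCreb1 cells, and of the 328 called lower 65.2% were lower, with medians of −0.17 and −0.03.

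**Figure D4:**
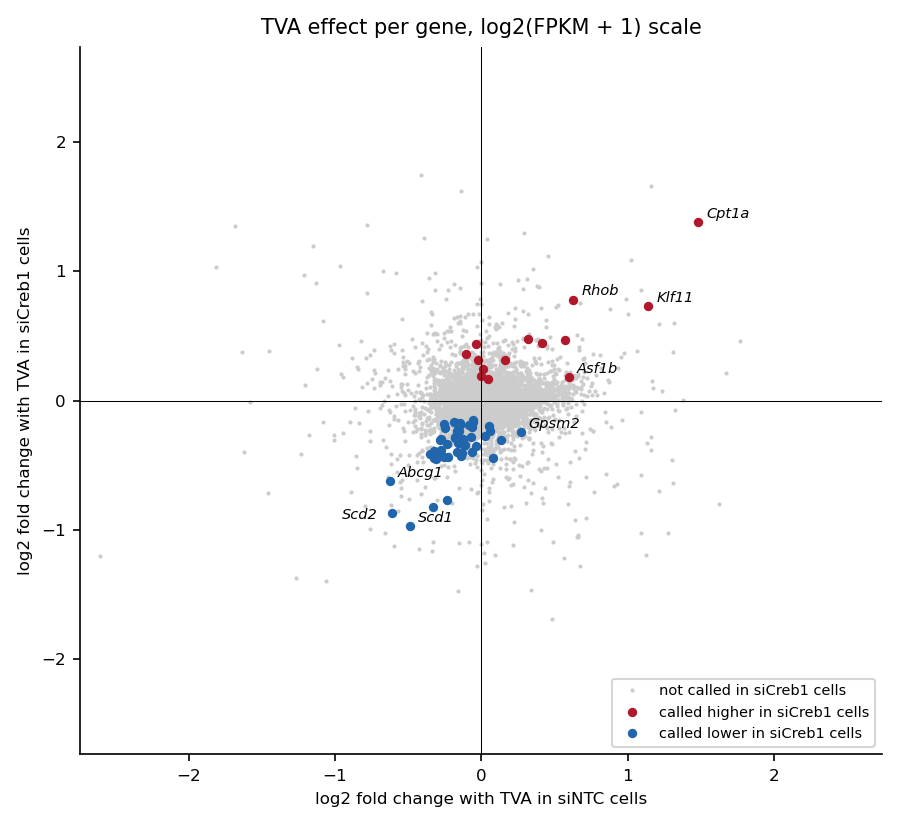
TVA effect in siNTC cells (horizontal axis) against that in siCreb1 cells (vertical axis), each a log2 fold change, for the 11648 genes tested, on the log2(FPKM + 1) scale, with the 14 genes called higher in siCreb1 cells in red and the 48 called lower in blue. Cpt1a, Rhob and Klf11 lie high in both and Scd1, Scd2 and Abcg1 low in both, while most grey points lie near 0.

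The difference between both TVA effects was tested as the interaction, which called 264 of the 11648 genes (2.27%). Among the 62 genes it called 13. Ppbp and Vwf were more positive in siCreb1 cells, since their log2 fold changes in siNTC cells were −0.11 and −0.02 (difference 0.47, adjusted p = 0.0118, and 0.33, adjusted p = 0.0423, limma). Gpsm2 went opposite ways, lower in siCreb1 cells and higher in siNTC cells, from 8.51–9.06 to 10.7–11.1 FPKM in the latter (difference −0.51, adjusted p = 0.0014, limma). Tmem97 was at 17.0–19.1 and 19.2–19.95 FPKM in siNTC cells and at 19.5–20.1 and 14.997–16.5 FPKM in siCreb1 cells (difference −0.44, adjusted p = 0.0059, limma). Il2ra was at 16.7–17.7 FPKM in siNTC and 17.3–17.7 FPKM in siNTC plus TVA libraries, a log2 fold change of 0.02 with a 95% interval of 0.07 to either side, and its fall in siCreb1 cells started from a higher level. Hmgcs1 ended near one level in both TVA groups, 31.8–32.9 FPKM with siNTC and 31.7–32.9 FPKM with siCreb1, from 37.3–39.3 and 43.2–45.3 FPKM without TVA (difference −0.21, adjusted p = 0.0217, limma). It was the 1 gene of the cholesterol list for which the interaction was called. The median of that list was −0.16 in siNTC cells with 13 called lower (2.82% of all genes were).

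Lists of DNA replication and mitosis had other medians in siNTC than in siCreb1 cells. Of 45 tested genes of DNA replication and nucleotide synthesis, 37 were called higher with TVA in siNTC cells and 0 in siCreb1 cells, with medians of 0.39 and 0.05. Of 38 genes of mitosis 37 and 0 were called higher, with medians of 0.44 and 0.04. Of all genes, 4.44% were called higher in siNTC cells and 0.12% in siCreb1 cells. At an unadjusted p under 0.05 (limma) 6 replication genes were higher and 1 lower in siCreb1 cells, and 5 mitosis genes were higher and 1 lower. Of all genes, 4.18% were higher and 5.37% lower at that threshold. The interaction was called, and lower, for 27 and 30 of these genes (it was called in either direction for 2.27% of all genes). The 13 tested replication-dependent histones had medians of 0.25 and −0.22, with 1 called higher in siNTC cells, 0 in siCreb1 cells and 1 by the interaction. Mcm5, a subunit of the replicative helicase, was at 30.5–32.7 FPKM in siCreb1 and 33.6–34.5 FPKM in siCreb1 plus TVA libraries (log2 fold change 0.09, adjusted p = 0.618, limma), against 0.51 in siNTC cells (adjusted p = 1.16e-04, limma). Mki67, the proliferation marker, was at 39.7–41.7 and 41.8–43.0 FPKM (0.07, adjusted p = 0.486, limma), against 0.56 in siNTC cells (adjusted p = 1.88e-06, limma). Gzmb, a granzyme of killer T cells, was at 95.03–101 and 91.4–94.1 FPKM (−0.08, adjusted p = 0.506, limma), against 0.31 in siNTC cells (adjusted p = 2.52e-04, limma). For all 3 the interaction was called. In siNTC cells the mean went from 25.7 to 37.0 FPKM for Mcm5, from 29.7 to 44.4 FPKM for Mki67 and from 72.4 to 89.9 FPKM for Gzmb. Without TVA all 3 had a higher mean in siCreb1 cells, at 31.9, 40.5 and 97.9 FPKM. Whether these starting levels bear on the difference was not tested.

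In 31 of the 44 lists of pathways no member was called in siCreb1 cells. They included all 5 lists around CREB, with 0 of 69 tested members called (the CREB family and its coactivators, cyclic AMP and PKA signalling, immediate early genes, the circadian clock and fatty acid receptors). With 0.532% of all genes called, 0 of 69 does not stand apart from all genes. The medians of these 5 lists lay between −0.04 and 0.05, and at an unadjusted p under 0.05 (limma) 6 members were higher and 3 lower, against 4.18% and 5.37% of all genes. The palindromic cyclic AMP response element TGACGTCA was in none of the 44 promoters found for the called genes, against 3.21% of all promoters. With so few promoters, its absence does not stand apart from that share. Only the full palindrome was searched for this element, and the other called genes had no promoter entry. The cytosolic ribosomal proteins had 0 of 76 members called, while 69 of 76 had a negative log2 fold change (50.7% of all genes did) and 43 were lower at an unadjusted p under 0.05 (limma, 5.37% of all genes), with a median of −0.08 that was −0.03 after quantile normalization and −0.07 after rescaling to TPM. The effector and memory transcription factors, cytotoxic granule genes, checkpoint receptors and T cell receptor signalling genes had 0 called of 23, 15, 11 and 23 tested, counts that do not stand apart from the 0.532% of all genes. Of the 23 transcription factors, 19 had a positive log2 fold change (49.3% of all genes did) and 4 a negative one. Their libraries lay apart and higher in 7 (8.04% of all genes) and lower in 2 (8.99%). At an unadjusted p under 0.05 (limma), 4 of the 15 granule genes were higher (4.18% of all genes) and 2 lower (5.37%). Of the 11 checkpoint receptors 1 was higher and 3 lower.

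**Figure D5:**
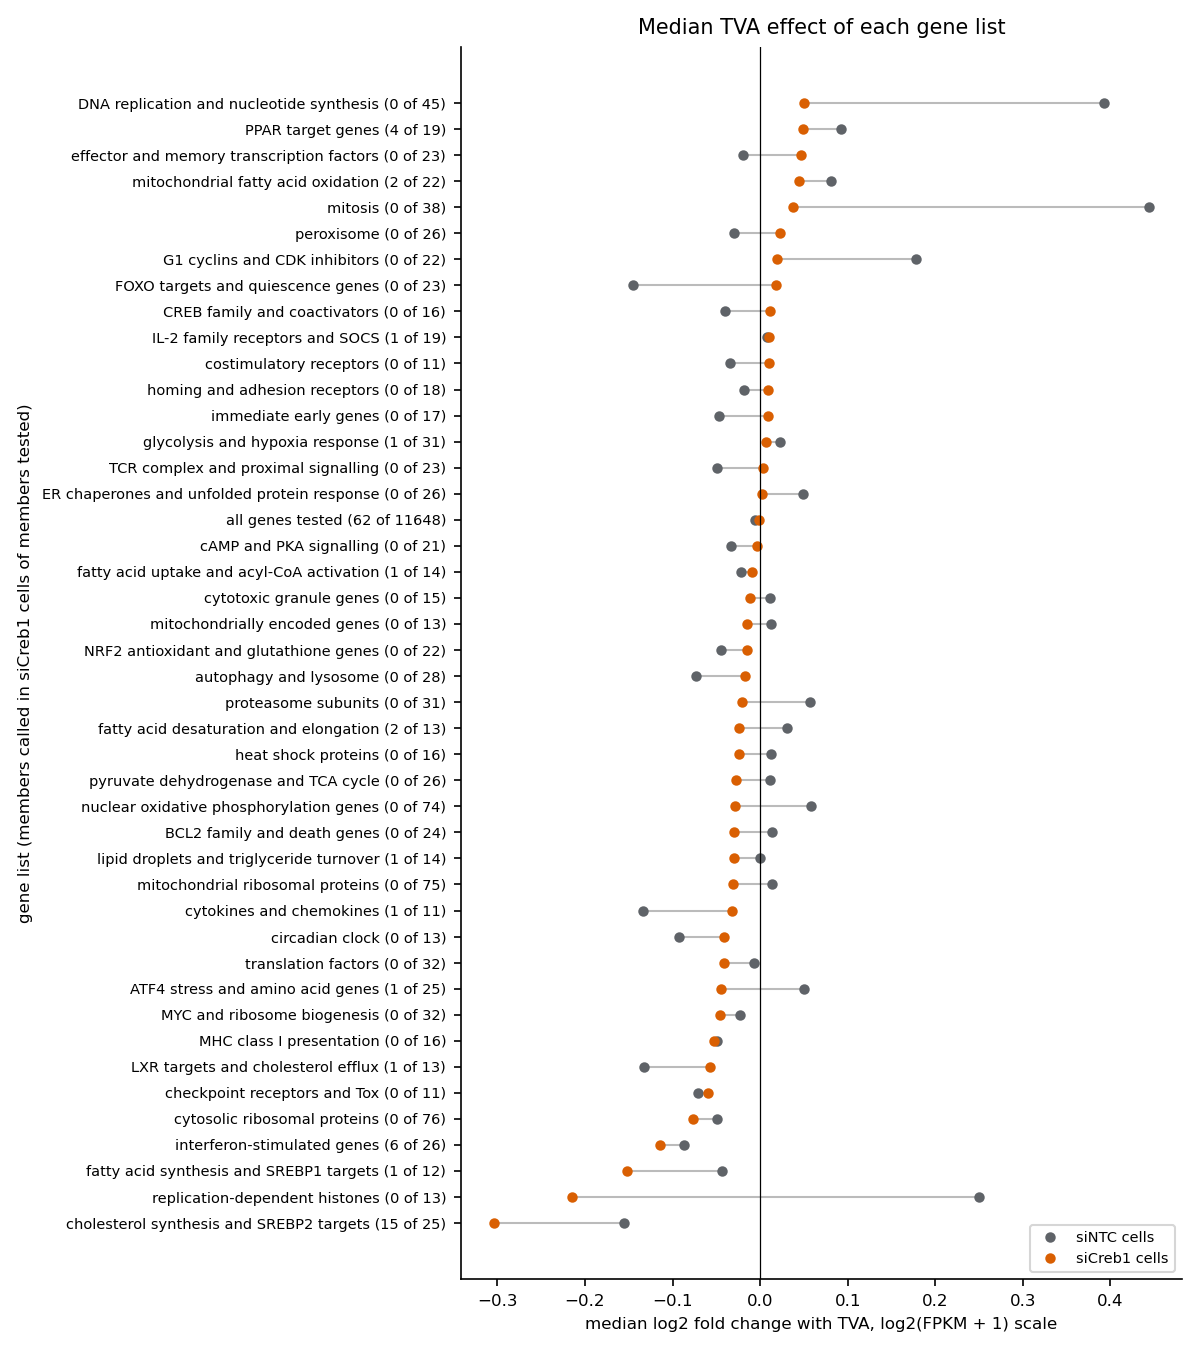
Median log2 fold change with TVA (horizontal axis, log2(FPKM + 1) scale) of the tested members of each gene list with 3 or more of them and of all 11648 genes, in siNTC and siCreb1 cells, with the number called of the number tested in siCreb1 cells beside each name. The cholesterol list lies lowest in siCreb1 cells at −0.30, and the replication and mitosis lists, at 0.39 and 0.44 in siNTC cells, lie near 0 in siCreb1 cells.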

How the data were processed

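Libraries were made from total RNA of 4 groups of 3 samples with a SMARTER mRNA-Seq kit, and GRCm38 (mm10) was named in the submitters' processing notes. The aligner, the counting program and its strand setting are not given in the sources used here. The values were deposited by the authors as FPKM per gene, with gene coordinates and lengths. FPKM times gene length came in steps that gave whole reads, to within 0.02 reads, for at least 99.995% of the genes above 0 in each library (Creb1 excepted, in the 6 siCreb1 libraries), and these recovered reads totalled 16660234 to 24602484 per library.

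The limma test (version 3.58.1, R 4.3.3, data.table version 1.17.8) took log2(FPKM + 1) of the genes with a mean of at least 1 FPKM over the 6 siCreb1 libraries, in a single fit of the 12 libraries with a coefficient per group and a mean-variance trend, and p-values were Benjamini-Hochberg adjusted over 11648 genes (threshold 0.05). Fold changes on this scale understate those of low genes. All tests were two-sided, and an exact permutation test of 3 against 3 libraries cannot go below p = 0.1 for 1 gene. Figures used matplotlib 3.10.9 (Python 3.11.15). Promoters were from RefSeq (GRCm38.p6).

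Genes were named if called higher, if among the 20 largest falls, if called with siNTC too, if in a gene list, or if among the 5 largest interactions of either direction. The other genes named were chosen after their values were seen. Results of 5 genes are not reported here, though counts include them. The members and lists were chosen with earlier results of these data known. Alternatives changed the pseudocount (0.1), the filter (none, 5 FPKM or all 12 libraries), the scaling (quantile, TPM), the trend, the samples fitted and the model (limma-voom on recovered reads), left out each library or, chosen after seeing the data, Creb1, or added the replicate number as a block. Deviations of same-numbered siCreb1 and siCreb1 plus TVA libraries correlated between −0.022 and 0.0093, so the numbers were not taken as pairs.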

Additional observations from a re-analysis of the deposited data

Results flagged for a closer look

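The effect of TVA differed between siCreb1 and siNTC cells, by the interaction term in limma, for 16 of the genes named above, and each value here is the log2 fold change in siCreb1 cells minus that in siNTC cells. More positive in siCreb1 cells were Ppbp (0.47, adjusted p = 0.0118) and Vwf (0.33, adjusted p = 0.0423). Neither was called in siNTC cells, where the levels of both were higher in all 6 libraries than in any siCreb1 library. Of the lipid genes, Scd2 (−0.26, adjusted p = 0.008) and Hmgcs1 (−0.21, adjusted p = 0.0217) fell in both and further in siCreb1 cells, as did Gbp2 (−0.17, adjusted p = 0.0409). All 3 started from a higher mean in siCreb1 cells. Scd2 went from 153.9 to 83.8 FPKM with siCreb1 and from 122.5 to 79.8 FPKM with siNTC. Gbp2 went from 140.5 to 114.2 FPKM and from 120.6 to 110.7 FPKM. Whether the starting levels bear on these differences was not tested.

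Asf1b (−0.42, adjusted p = 0.00147) rose in both and less in siCreb1 cells. Mki67 (−0.49, adjusted p = 2.65e-04), Mcm5 (−0.42, adjusted p = 0.0102) and Gzmb (−0.38, adjusted p = 0.00259) were called higher in siNTC cells and not called in siCreb1 cells. Gpsm2 (−0.51, adjusted p = 0.0014) was called in opposite directions. Tmem97 (−0.44, adjusted p = 0.0059), Il2ra (−0.30, adjusted p = 0.00705), Myl10 (−0.29, adjusted p = 0.0223), Plac8 (−0.25, adjusted p = 0.0227), 2310009B15Rik (−0.53, adjusted p = 0.0442) and Wars (−0.22, adjusted p = 0.0445) were called lower in siCreb1 cells and not called in siNTC cells.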

How the results depend on the processing

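No result reversed. Of the 62 genes called with TVA in siCreb1 cells (14 higher, 48 lower), TPM left 37 (8 and 29), the fit of the 6 libraries compared 39 (7 higher), and limma-voom gave 155 (64 and 91). With the replicate number as a block, which the correlations did not bear out as a pairing, 34 were called (6 and 28), and 2 of the interferon-stimulated genes. Testing all genes above 0 left 9 higher. Leaving out 1 library gave 30 to 44 called, 6 to 10 higher and 24 to 34 lower, 11 or 12 cholesterol genes, and 2 to 3 interferon-stimulated genes in place of 6. That list had 1 called after TPM and 2 without the trend or in the fit of 6 libraries. Limma-voom called 4 fatty acid oxidation genes higher in place of 2. In siNTC cells the 845 became 554 with TPM, 357 in the fit of 6 libraries and 552 to 697 with 1 library left out, lowest without siNTC plus TVA replicate 2. The 264 interaction calls became 152 with TPM, 445 with limma-voom and 168 to 237 with 1 library left out (168 and 172 without siCreb1 replicates 1 and 2, 171 without siNTC plus TVA replicate 2). The cause of these shifts was not tested. Leaving out Creb1 kept 62. At 8 reads in its lowest library, Gm7019 is limited by depth.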
